A study of Mus musculus with 9 samples.

Results

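mmu-miR-144, mmu-miR-451 and mmu-miR-486 are mouse microRNAs (miRNAs) of red blood cells, and they were followed here across primary visual cortex samples of mouse. Members were the spots of miRNA probes whose gene name in the scanner files is one of these names, which gave 3 of the 611 mouse miRNA names on the array. All 3 were among the 318 names tested. The C57BL6 mice were 28 days old in every group. Controls lived under a normal light and dark cycle, dark-reared mice lived in complete darkness from birth, and monocularly deprived mice had 1 eye sutured shut from postnatal day 24. For the sutured mice the visual cortex opposite the closed eye was taken. Each group had 3 samples, 100 ng of total RNA was labelled per sample with Cy3, a fluorescent dye, and each sample went on 1 Agilent mouse miRNA array. Whether a replicate was an animal, a pool or a repeat of 1 RNA is not stated in the labels, and p-values rest on the spread of these arrays, part of which may be technical. Whether blood was flushed from the animals before dissection is not given in the sources used here.

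Circulating red cells carry no nucleus, but they keep miRNAs made while their precursors matured in the bone marrow. miR-144 and miR-451 are cut from 1 primary transcript that the erythroid factor GATA1 switches on, and miR-451 accompanies haemoglobin synthesis. miR-486 lies within Ank1, the gene of the red cell membrane protein ankyrin 1, and it is made in skeletal and heart muscle as well. Neurons and glia are not a known major source of miR-144 and miR-451, so in brain tissue these miRNAs are often read as a gauge of the blood left in the vessels. In bulk tissue, fewer cells of a type and less RNA per cell cannot be told apart.

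The sequences below show what the probes captured and how close the cluster genes lie, with coordinates on GRCm38.p6 and sequences from RefSeq. Mir144 lies at chr11:78073005-78073070 and Mir451a at chr11:78073170-78073241, both on the plus strand, with 99 bases between the hairpins. Mir486 lies at chr8:23142555-23142682, inside the interval of Ank1. The table of sequences matched 2 of the 3 members. In the mature forms the capitals mark the seed, bases 2 to 8, which pairs with target messages.
miR-144 (mmu-miR-144-3p): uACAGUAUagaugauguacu
miR-451 (mmu-miR-451a): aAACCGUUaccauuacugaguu
In the hairpins the capitals mark the mature miRNA. That of miR-451 runs from the stem into the loop, a shape tied to its known maturation by Argonaute 2 without Dicer, whereas that of miR-144 lies in the 3′ arm.
Mir144 hairpin: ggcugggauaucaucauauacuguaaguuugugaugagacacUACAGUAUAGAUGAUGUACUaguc
Mir451a hairpin: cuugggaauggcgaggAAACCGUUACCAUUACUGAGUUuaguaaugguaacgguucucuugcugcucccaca
No other of the 1679 mature mouse names in the table had the seed of either, although miR-101a-3p shared bases 2 to 7 with miR-144. The cluster members therefore have different seeds from each other.

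Each member was read by 2 probes with 10 spots each. The miR-451 probes were 21 and 22 bases long and complementary to mature bases 2 to 22 and 1 to 22. The miR-144 probes were 19 and 20 bases long and complementary to bases 2 to 20 and 1 to 20. Each of these 4 probes matched 1 mature name in the table. The miR-486 probes were shorter, at 13 and 14 bases, with 76.9% and 71.4% G or C against 38.1% at most in the others.

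Feature Extraction, the scanner software, called each member detected on all 9 arrays. The miR-451 intensity was 535.5 to 1943 units, and all of its 19 or 20 spots in use were well above background on every array. For miR-144 the intensity was 20.6 to 95.4 units, and again all 16 to 20 spots in use were well above background. miR-486 was close to background, with a raw spot signal of 85.8 to 114.3 units over a local background of 59.8 to 64.9. Its spots well above background numbered from 6 of 18 in use on control replicate 1 to 20 of 20. Levels below are log2 of the intensity over the 75th percentile of the array, so a level of 0 equals that percentile, and levels of different miRNAs are not compared because probes differ in brightness.

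mmu-miR-451 lay at 0.81, 0.30 and 1.26 in control replicates 1, 2 and 3. In the dark-reared samples it lay at 1.30, 0.42 and 1.12, and in the monocularly deprived samples at 1.36, 1.49 and 1.34. Replicate 2 was the lowest sample of both the control and the dark-reared group, and the 3 monocularly deprived samples lay above all 6 others. The highest and lowest arrays differed 2.27-fold.

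mmu-miR-144, its cluster partner, had levels of -3.42, -4.26 and -3.12 in control, -3.12, -4.28 and -3.16 (replicate 3) in dark-reared, and -3.17, -2.83 and -3.21 in monocularly deprived cortex. Replicate 2 was again by far the lowest of the control and of the dark-reared samples, and here the groups overlapped. The range over the 9 arrays was 2.74-fold.

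mmu-miR-486, from the other locus, lay at -4.79, -4.70 and -4.34 in control, at -4.52, -4.15 and -4.36 in dark-reared, and at -4.28, -4.24 and -4.27 in monocularly deprived samples. Dark-reared replicate 2, among the lowest arrays for the cluster members, was the highest of all 9 for miR-486. Its range was 1.56-fold.

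**Figure D1:**
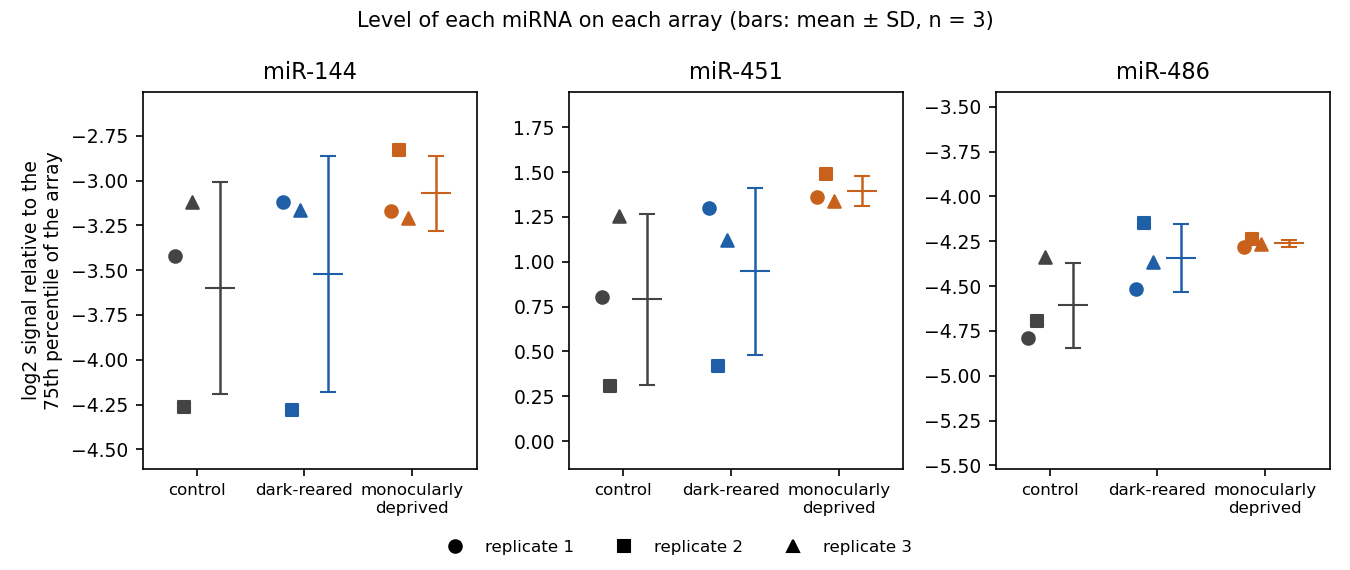
Level of miR-144, miR-451 and miR-486 on each array, as log2 signal over that array's 75th percentile (vertical axes span the same number of log2 units). Symbols mark replicates, and bars give mean ± SD over the 3 arrays of a group. For miR-144 and miR-451 the squares, replicate 2, lie lowest in the control and dark-reared groups, at -4.26 and -4.28 and at 0.30 and 0.42.

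Within groups, miR-144 and miR-451 varied more than most miRNAs. The within-group SD of the fit was 0.53 log2 units for miR-144, higher than in 92.5% of the 318 tested miRNAs, and 0.39 for miR-451, higher than in 88.4%. For miR-486 it was 0.18, against a median of 0.15 over all tested. By group, the SD of miR-451 was 0.48 in control, 0.47 in dark-reared and 0.08 in monocularly deprived samples (n = 3 each). In the same order it was 0.59, 0.66 and 0.21 for miR-144 and 0.24, 0.19 and 0.02 for miR-486. The smaller spread of the monocularly deprived group was not tested, and those arrays were alone on a second slide.

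For miR-144 and miR-451 the 2 probes gave the same picture. On each of the 9 arrays the brighter miR-144 probe exceeded the dimmer by 0.12 to 0.28 log2 units, and the brighter miR-451 probe exceeded its partner by 0.72 to 0.83. Both probes of each cluster member therefore carried the low values of replicate 2. The miR-486 probes agreed less well, with differences of 0.47 to 0.99. These were 0.47, 0.67 and 0.51 in control, 0.90, 0.785 and 0.65 in dark-reared, and 0.99, 0.93 and 0.87 in monocularly deprived samples. The 2 miR-486 probes thus did not move alike between groups. Between spots of 1 probe on 1 array the coefficient of variation had a median of 2.7% and 2.9% for the miR-451 probes, 5.88% and 6.65% for those of miR-144, and 7.44% and 8.98% for those of miR-486.

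Brightness of the whole array moved with the low values. The 75th percentile used for scaling was 492 units on control replicate 2 and 401 on dark-reared replicate 2, the lowest of the 9, against 601 to 1022 on the others. Before scaling, miR-451 read 608 and 536 units on those 2 arrays and 1519 to 1943 on the rest, so its intensity was lower there by a larger factor than the percentile. Both lie in column 2 of slide 1, where the replicate number equals the slide column on every array. Replicate number and column cannot be told apart there. Over the 318 miRNAs, deviations of same-numbered control and dark-reared arrays correlated at 0.887, 0.324 and 0.815 for numbers 1, 2 and 3, as a description across miRNAs, which are not independent. The part of array brightness and of slide position in the low values was not tested.

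To ask which miRNAs moved with miR-451 between arrays of 1 group, each of the other 317 tested miRNAs was fitted in limma on group and on the level of miR-451. miR-144 passed and no other miRNA did: its slope was 1.32 log2 units per unit of miR-451 (SE 0.14, 95% interval 0.99 to 1.65, limma adjusted p = 0.00988). That is 0.315% of the miRNAs called, against 28 with an unadjusted limma p under 0.05 and a median slope of 0.02. miR-486 had a slope of -0.0006 (SE 0.19, limma adjusted p = 0.998), with an interval of -0.44 to 0.44. The difference between the slopes was not tested.

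The call for miR-144 rested on control replicate 2 and dark-reared replicate 2. The slope was 1.29 without the first (limma adjusted p = 0.181), 1.22 without the second (0.283) and 0.81 without both (0.823), and 1.36 with the replicate number as a block (0.245). Without both arrays the slope of miR-486 was 0.70 (limma adjusted p = 0.823). The call for miR-144 was also lost with the normexp correction in place of the subtraction by the scanner software. That correction was run with an offset of 50 units added to every spot, against 20.6 to 95.4 units for miR-144. Its slope was then 0.08 (limma adjusted p = 0.961), and 0.13 (0.57) with 9 spots of bright local background kept out of that correction. Here and below, the parts of the offset and of the background in the normexp results were not tested.

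Direct correlation between members gave the same pattern (3 pairs, two-sided exact permutation tests, p adjusted over the pairs). Over the 9 arrays miR-144 and miR-451 correlated at r = 0.963 (exact permutation p = 0.000446, adjusted p = 0.00134; rho = 0.717, p = 0.0369, adjusted p = 0.111). Without the 2 arrays farthest from the median of miR-451, which are control replicate 2 and dark-reared replicate 2, r was 0.838 over 7 arrays (exact permutation p = 0.0385, adjusted p = 0.0577), so the relation past the threshold rests on those arrays. On slide 1 alone, with 6 arrays, r was 0.971 (exact permutation p = 0.00556, adjusted p = 0.0167), and slide 2 holds too few arrays for a value. Deviations from group means gave r = 0.973, with p = 0.00463, the smallest that the exact permutation within groups allows (adjusted p = 0.0139). With same-numbered control and dark-reared arrays moved together, which leaves 36 arrangements, the exact permutation p was 0.0278, again the smallest possible, and did not pass after adjustment (0.0833).

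miR-486 and miR-451 had r = 0.380 over the 9 arrays (exact permutation p = 0.315, adjusted p = 0.472; rho = 0.433, p = 0.25). Without the same 2 arrays r was 0.877 (exact permutation p = 0.0236, adjusted p = 0.0577). miR-144 and miR-486 had r = 0.195 (exact permutation p = 0.668, adjusted p = 0.668; rho = 0.1, p = 0.81) and, without control replicates 1 and 2, -0.52 (p = 0.242). With no scaling between arrays all 3 pairs passed, at r = 0.993 for miR-144 with miR-451, 0.944 for miR-486 with miR-451 and 0.947 for miR-144 with miR-486 (exact permutation, adjusted p = 0.000322, 0.00738 and 0.00634). Those values keep the brightness of the whole array: without scaling 278 of the 317 miRNAs were called in the slope fit on miR-451, all positive, with a median slope of 0.53. With the normexp correction the first pair was at -0.11 (exact permutation p = 0.798).

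The miRNAs whose pattern was most like each member were taken as the 5 highest correlations of deviations from group means over the 9 arrays, a description of 317 candidates with no test. For miR-451 they were miR-144 (r = 0.973), miR-142-3p (0.970), miR-496 (0.942), miR-142-5p (0.939) and miR-380-3p (0.864). For miR-144 they were miR-142-5p (0.979), miR-451 (0.973), miR-142-3p (0.963), miR-380-3p (0.910) and miR-496 (0.903). Both lists hold both arms of miR-142, a miRNA of white blood cells and other cells of the blood lineage, beside 2 miRNAs of the imprinted Dlk1-Dio3 cluster. For miR-486 they were miR-98 (0.972), miR-199b* (0.949), miR-15b (0.946), miR-700 (0.938) and miR-140 (0.933), and miR-144 and miR-451 ranked 262 and 238 of 317. All these deviations share the scaling of each array.

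miR-142-5p lay at -5.78, -6.49 and -5.49 in control, -5.77, -6.66 and -5.52 in dark-reared, and -5.62, -5.28 and -5.50 in monocularly deprived samples. Its lowest values fell on the same 2 arrays, and it was called detected on 5 of the 9 arrays, neither of those 2 among them. Its slope on miR-451 was 1.13 (SE 0.17, limma adjusted p = 0.0534), second by p-value and short of the threshold. miR-142-3p, detected on all 9 arrays, had a slope of 0.30 (SE 0.08, limma adjusted p = 0.438), and it spanned only -3.27 to -2.93.

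**Figure D2:**
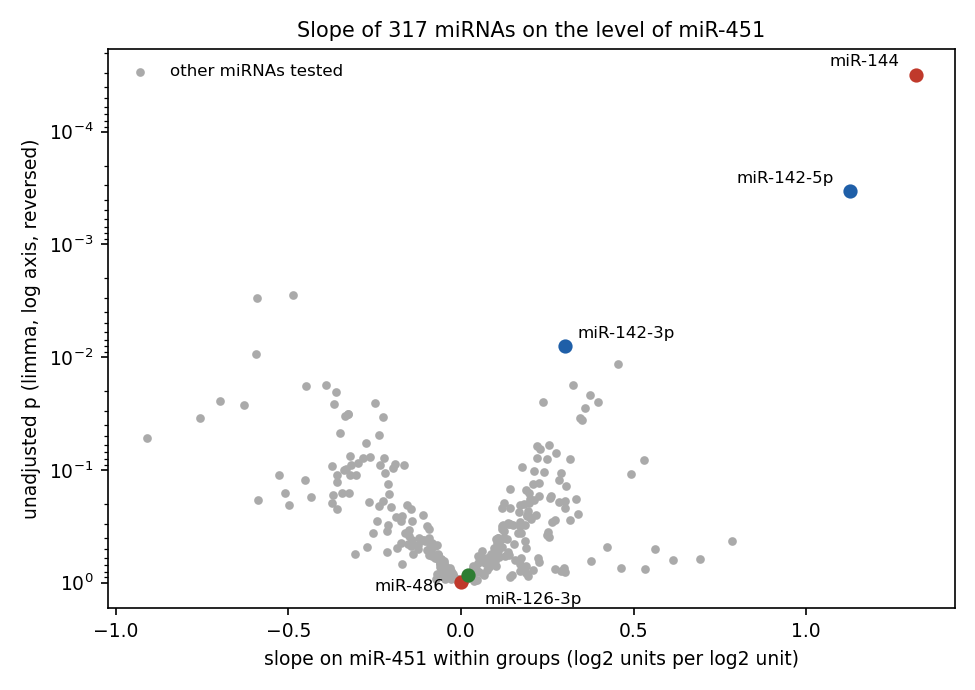
Slope of each of 317 miRNAs on miR-451 within groups (horizontal, log2 units per log2 unit) against its unadjusted limma p (vertical, log axis, smaller p higher). miR-144 stands at a slope of 1.32 and miR-142-5p at 1.13, whereas miR-486 and the endothelial miR-126-3p lie near 0.

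No member of the other cell type lists passed in the slope fit. In the list of other miRNAs abundant in red cells or their precursors, 13 of 15 are on the array and 9 were tested. By limma 0 of the 9 passed, 3 had a positive slope, and the median slope was -0.07, against 0.02 over all tested. Its brightest members miR-16 (slope -0.08), miR-15a (-0.08) and miR-185 (0.06) are also made by many other tissues. miR-363, miR-182, miR-183 and miR-96 were detected on 0 arrays.

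The vessel wall list had 4 of 4 members tested and 0 called, with a median slope of 0.04. Endothelial miR-126-3p had a slope of 0.02 (SE 0.11), its hairpin partner miR-126-5p 0.05 (SE 0.09), and miR-143 of smooth muscle 0.37 (SE 0.13, limma adjusted p = 0.438). In the leukocyte and platelet list 5 of 6 were tested, 0 were called and 4 had positive slopes, with a median of 0.23. Of its brightest members, miR-150 of lymphocytes had a slope of -0.21, miR-142-3p 0.30 and miR-146a 0.01. The summed level of that list was 0.426 to 0.471 in control, 0.435 to 0.443 in dark-reared and 0.396 to 0.468 in monocularly deprived samples, in units of the array percentile.

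Because muscle also makes miR-486, muscle markers were read beside it. Of 6 on the array 3 were tested, and 0 passed in the slope fit or in any of the 3 group comparisons. With the percentile over all probes all 3 rose after monocular deprivation, as did 59.4% of all tested. miR-1, miR-133a and miR-133b had slopes of 0.11, 0.11 and -0.43. The summed level of the list was 0.109 to 0.130 in control, 0.119 to 0.172 in dark-reared and 0.116 to 0.136 in monocularly deprived samples, and miR-208a and miR-499 were detected on 0 arrays. The part of muscle RNA in the miR-486 signal was not tested.

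As a check of the tissue, all 7 neuronal markers, among them miR-128, miR-124 and miR-9, were detected on all 9 arrays, and liver miR-122 was detected on 0. In the slope fit 0 of the 7 neuronal, 0 of 3 oligodendrocyte and 0 of 4 choroid plexus and epithelial markers passed in limma, with median slopes of -0.09, -0.05 and -0.18. Slopes were 0.19 for miR-128, -0.09 for miR-124 and -0.16 for miR-9, -0.15, -0.03 and -0.05 for the oligodendrocyte miR-338-3p, miR-219 and miR-338-5p, and -0.33, -0.15 and -0.05 for miR-204 of choroid plexus and the epithelial miR-200b and miR-429.

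**Figure D3:**
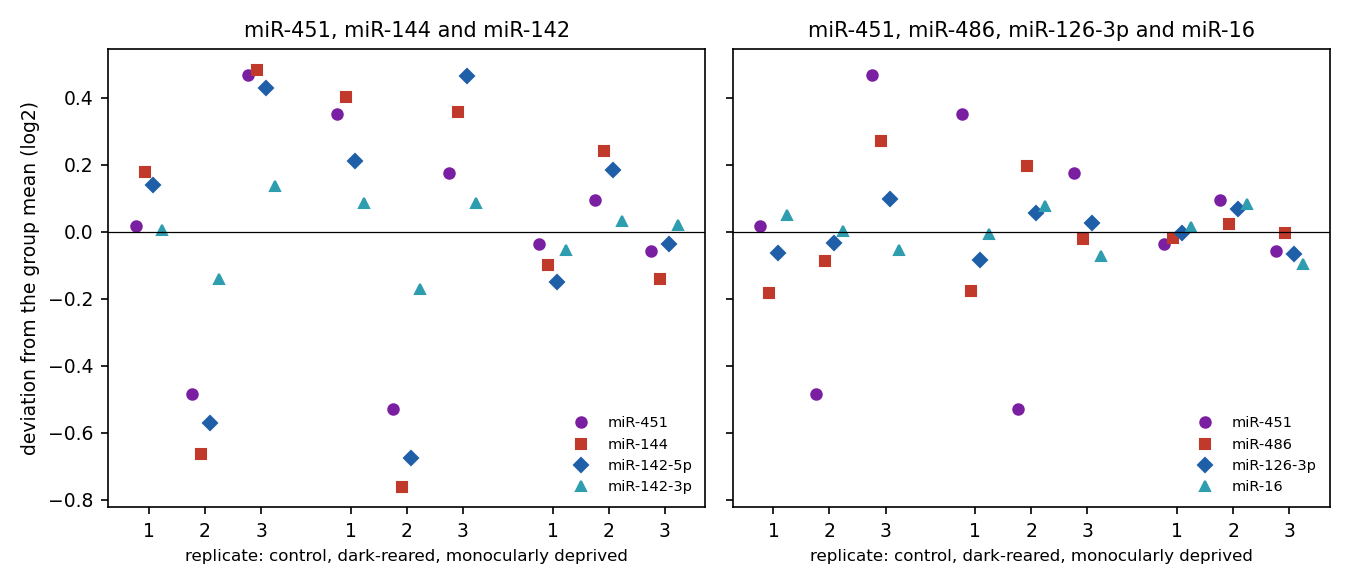
Deviation of selected miRNAs from their group mean (vertical, log2 units) on each array, with replicates 1 to 3 of control, dark-reared and monocularly deprived cortex from left to right. On replicate 2 of the control and dark-reared groups miR-451 lay 0.48 and 0.53 below its mean and miR-144 0.66 and 0.76 below, with miR-142-5p beside them, whereas miR-486 deviated by -0.09 and 0.20.

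The group comparison asks whether these miRNAs differed with visual experience. By limma 0 of the 3 members passed in each of the 3 comparisons, and miR-486 after monocular deprivation had the 1 unadjusted p under 0.05 among the 9. All 3 means were highest in the monocularly deprived group, next in the dark-reared group and lowest in control, and no neighbours in that order differed beyond their spread by limma.

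After dark rearing, miR-451 had a mean of 0.95 ± 0.47 (SD, n = 3) against 0.79 ± 0.48 in control. The log2 difference was 0.16 (SE 0.28, limma adjusted p = 0.859). For miR-144 the means were -3.52 ± 0.66 and -3.60 ± 0.59 (log2 difference 0.08, SE 0.37, limma adjusted p = 0.942), and for miR-486 -4.34 ± 0.19 and -4.61 ± 0.24 (0.26, SE 0.14, limma adjusted p = 0.547). In this comparison 0 of 3 members were called, against 0.629% of all tested, and the groups overlapped for each of them, with 18.6% of all tested not overlapping.

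The intervals show what 3 arrays a group can resolve. The 95% interval of the dark-reared to control ratio was 0.716 to 1.73 for miR-451, 0.584 to 1.91 for miR-144 and 0.965 to 1.49 for miR-486. Between same-numbered arrays of slide 1 the log2 difference in miR-451 was 0.49, 0.11 and -0.135 for pairs 1, 2 and 3. For miR-144 it was 0.30, -0.02 and -0.05. Array 2 was the lowest of the control and of the dark-reared group for both miRNAs, and that pair differed by 0.11 and -0.02. For miR-486 the differences were 0.27, 0.55 and -0.03, the largest in pair 2.

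After monocular deprivation, miR-451 had a mean of 1.40 ± 0.08 against 0.79 ± 0.48 in control. The level was 1.52-fold that of control and did not pass (log2 difference 0.61, SE 0.28, limma adjusted p = 0.126). miR-144 was at -3.07 ± 0.21 against -3.60 ± 0.59 (0.53, SE 0.37, limma adjusted p = 0.296). miR-486 was at -4.26 ± 0.02 against -4.61 ± 0.24, or 1.27-fold (log2 difference 0.35, SE 0.14, limma adjusted p = 0.0898). In this comparison 0 of 3 members were called, against 33% of all tested, and the groups did not overlap for miR-451 and miR-486, as for 52.8% of all tested (28.6% with the deprived group higher). Without control replicate 3 the miR-486 difference was 0.48 and passed (limma adjusted p = 0.0246). The brighter miR-486 probe alone gave 0.49 and passed (limma adjusted p = 0.0232). The dimmer lay at -5.05, -5.07 and -4.62 in control and -4.86, -4.78 and -4.77 in monocularly deprived samples, so its groups overlapped.

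The members' median difference from control was 0.53, against 0.08 over all tested. Scaling decided these calls: with the 75th percentile over all mouse miRNA probes all 3 members passed as higher, with log2 differences of 1.04 for miR-144, 1.12 for miR-451 and 0.86 for miR-486 (limma adjusted p = 0.0139, 0.00513 and 0.00834). So did 59.4% of all tested miRNAs, and 189 of 318 rose against 33 that fell, where the main scaling had 50 and 55. That scaling moved the median of all tested miRNAs to 0.58 and, between dark-reared and monocularly deprived cortex, to -0.68. With the normexp correction the signs of miR-144 (-0.24) and miR-486 (-0.51) turned, and neither passed. With 9 spots of bright local background kept out of that correction the signs did not turn (0.31 and 0.22), and again neither passed. Relative to the median of all, the difference in miR-451 was 0.41 to 0.54, in miR-144 0.45 to 0.515 and in miR-486 0.27 to 0.615 over the 4 scalings (both percentiles, quantile and none). Both percentiles and no scaling differ by 1 factor per array, which nearly cancels in this quantity, so their agreement was fixed in advance. Quantile normalization, which is not 1 factor, gave 0.41, 0.515 and 0.615 for miR-451, miR-144 and miR-486. With the normexp correction the same quantity was 1.03, 0.17 and -0.09, and with those spots kept out it was 0.44, 0.19 and 0.095. The monocularly deprived arrays were the 3 of slide 2 and the others the 6 of slide 1, so slide and group cannot be told apart.

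Between the deprived groups, miR-451 lay 0.45 log2 units lower in dark-reared than in monocularly deprived cortex (SE 0.28, limma adjusted p = 0.258), miR-144 also 0.45 lower (SE 0.37, 0.39) and miR-486 0.08 lower (SE 0.14, 0.674). None was called, against 28.6% of all tested, and the groups did not overlap for miR-451 alone of the members, as for 46.5% of all tested (20.4% lower). With the percentile over all probes all 3 passed as lower, at -1.11 for miR-144, -1.10 for miR-451 and -0.74 for miR-486 (limma adjusted p = 0.00827, 0.00397 and 0.0121), as did 63.8% of all tested. This comparison shares its arrays with the other comparisons.

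**Figure D4:**
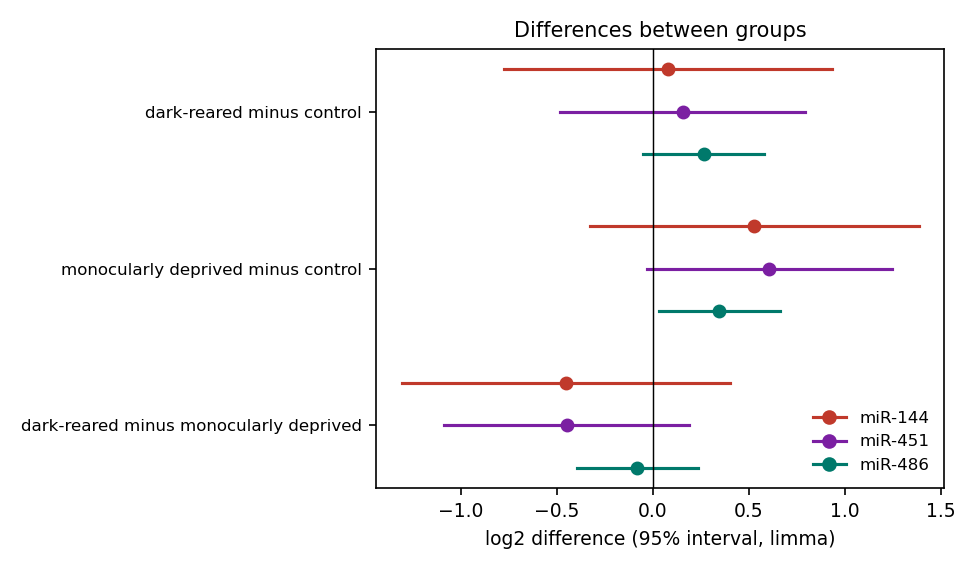
Log2 differences between groups for the 3 members with 95% intervals from limma, the vertical line marking no difference. Of the 9 intervals, that of miR-486 between monocularly deprived and control cortex alone excludes 0 before adjustment, at 0.03 to 0.66.

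Ratios of members within an array stay the same when an array is scaled by 1 factor, but not under quantile normalization or another background correction. The log2 ratio of miR-451 over miR-144 was 4.39 ± 0.17 in control, 4.47 ± 0.21 in dark-reared and 4.47 ± 0.13 in monocularly deprived samples (SD, n = 3). The differences were 0.08 for each deprived group against control (exact permutation p = 0.6 and 0.7). The ratio of miR-451 over miR-486 was more variable, at 5.40 ± 0.34, 5.29 ± 0.65 and 5.66 ± 0.06, and that of miR-144 over miR-486 was 1.01 ± 0.50, 0.82 ± 0.83 and 1.19 ± 0.19. None of the 9 differences passed (two-sided exact permutation tests, adjusted p of 0.9 or 1), in a design where 3 arrays against 3 cannot go below p = 0.1. Quantile normalization turned the sign of the difference after monocular deprivation in all 3 ratios, from 0.08 to -0.10 for miR-451 over miR-144, from 0.26 to -0.20 for miR-451 over miR-486 and from 0.18 to -0.10 for miR-144 over miR-486.

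In the same group comparisons, 6 of the 9 tested members of the other red cell list rose after monocular deprivation and 0 fell, against 15.7% higher over all tested, with a median log2 difference of 0.42. miR-20a (0.57), miR-92a (0.53), miR-15b (0.49), miR-25 (0.46), miR-106b (0.42) and miR-93 (0.38) passed, with limma adjusted p of 0.00539 to 0.0259. The slopes of these 6 on miR-451 within groups were -0.15 to 0.08. The brightest of the list, miR-16 (-0.007), miR-15a (0.17) and miR-185 (0.17), did not pass (limma adjusted p = 0.962, 0.256 and 0.184). The count followed the scaling: 9 rose with the percentile over all probes, where 59.4% of all tested rose, and 6 with quantile normalization, where 26.4% did. Without scaling and with the normexp correction 0 of the 9 passed, as did 0% of all tested as higher. After dark rearing 0 of the 9 passed, with a median of 0.12. Between dark-reared and monocularly deprived cortex miR-20a (-0.46) and miR-93 (-0.36) were lower in the dark-reared group, 2 of 9 against 9.75% lower over all tested (limma adjusted p = 0.0155 and 0.00901). There too the count ran from 9 with the percentile over all probes, against 63.8% of all tested lower, to 0 without scaling, against 0%.

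Among leukocyte markers miR-150 fell after monocular deprivation (-0.77, SE 0.11, limma adjusted p = 0.00124), the 1 called of 5 tested, against 17.3% lower over all tested, and it was higher in dark-reared than in monocularly deprived samples (0.66, limma adjusted p = 0.00367). Of the 4 vessel wall miRNAs miR-126-5p (-0.63) and miR-145 (-1.24) fell after monocular deprivation (limma adjusted p = 0.000339 and 0.00703). miR-126-3p, the hairpin partner of miR-126-5p, did not pass there (0.18, limma adjusted p = 0.123). miR-145 was not called detected on monocularly deprived replicate 2, where it lay at -6.95. Between the deprived groups miR-126-5p and miR-145 were higher in dark-reared samples, at 0.38 and 1.15, and miR-126-3p was lower, at -0.31 (limma adjusted p = 0.00743, 0.00999 and 0.0261). Of all tested, 28.6% were called there. After dark rearing 0 members of either list passed. The falls of miR-150 and miR-126-5p did not pass with the percentile over all probes or without scaling, and the vessel wall list then had 2 higher and 1 lower, or 0 and 1. With quantile normalization miR-126-5p (-0.17, limma adjusted p = 0.39) and miR-145 (-0.47, 0.15) did not pass, whereas miR-150 did (-0.68, 0.00446). Between the deprived groups miR-126-5p turned sign with the percentile over all probes (-0.27) and quantile normalization (-0.24). There miR-145 passed under no other scaling, and miR-150 was 0.01 with the percentile over all probes. As summed levels, the members were at 1.33 to 2.56 in control, 1.44 to 2.62 in dark-reared and 2.69 to 3.00 in monocularly deprived samples, and the vessel wall list at 1.77 to 1.97, 1.60 to 1.74 and 1.94 to 2.115. Each sum mostly follows 1 bright miRNA and says little of the others. On control replicate 1 miR-451 made up 1.75 of 1.88, and miR-126-3p had a mean log2 level of 0.75, against -3.41 for miR-143, the next of its list.

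Lists of the tissue's own cells also had calls. Over all tested, 33% were called after monocular deprivation (15.7% higher, 17.3% lower), 0.629% after dark rearing and 28.6% between the deprived groups. After monocular deprivation neuronal miR-9 fell (-0.50, limma adjusted p = 0.00223) and miR-218 rose (0.29, limma adjusted p = 0.0195), among 7 tested. miR-9 did not pass with the percentile over all probes (0.01, limma adjusted p = 0.961) or without scaling (-0.74, 0.396). miR-218 did not pass with quantile normalization (0.29, limma adjusted p = 0.0695) or without scaling (0.05, 0.998). Of the 3 oligodendrocyte miRNAs miR-338-5p fell (-2.70, limma adjusted p = 5.71e-06) and miR-219 rose (0.59, limma adjusted p = 0.0389). miR-338-3p, the hairpin partner of miR-338-5p, did not pass (0.19, limma adjusted p = 0.344). miR-338-5p lay at -6.41, -6.95 and -6.50 in monocularly deprived samples, with the floor at -7.89. The fall of miR-338-5p passed under all 4 scalings, at -2.93 to -2.17, and did not pass with the normexp correction (-1.09). Of the 4 choroid plexus and epithelial miRNAs miR-200b (0.49) and miR-429 (0.48) rose (limma adjusted p = 0.0187 and 0.0216), and miR-200b rose after dark rearing as well (0.76, limma adjusted p = 0.045), a call made under the main scaling and under none of the other 3. Between the deprived groups miR-9 (0.38) and miR-338-5p (2.65) were higher and miR-219 (-0.59) lower in dark-reared samples (limma adjusted p = 0.00956, 7.11e-06 and 0.0423). There the sign of miR-9 turned with the percentile over all probes (-0.28), and miR-9 and miR-219 did not pass without scaling (limma adjusted p = 0.992 and 0.775). Without scaling, the rises of miR-219, miR-200b and miR-429 after monocular deprivation did not pass either (limma adjusted p = 0.998 each).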

How the data were processed

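Feature Extraction 10.1.1.1 of Agilent, per the file headers, measured 13715 spots per array and subtracted the background. The deposited intensity values have no scaling between arrays. The authors' series matrix held the same intensity at 100% of spots (relative difference under 1e-05). Spots called outliers by that program were left out, and intensities were averaged over spots and probes. They were divided by the array's 75th percentile over 433 probes that exceeded background on every array, raised to a floor of log2 -7.89, and log2 was taken. miRNAs detected on all 3 arrays of a group were tested (318 of 611).

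A limma 3.58.1 model (R 4.3.3) of 3 group means used the 9 arrays together, with Benjamini-Hochberg adjustment over all tested and a threshold of 0.05. The slope fit added the miR-451 level. Exact permutation tests were run in Python 3.11.15. The number of arrays limits precision. Same-numbered control and dark-reared arrays had r of deviations of 0.324 to 0.887, so the replicate block was tried. For these arrays the number is also the slide column, so the block may stand for either. The numbers do not pair the arrays throughout: control replicate 2 was closer to dark-reared replicate 3 (0.615) than to dark-reared replicate 2 (0.324). Named miRNAs were the members, the 5 most alike, and, from each list, the 3 brightest tested members and those called. Members and lists were chosen with earlier results of these data known.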

Additional observations from a re-analysis of the deposited data

How the results depend on the processing

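Alternatives changed scaling, background, probe summary, floor, filter, fit, block and arrays, and the 9 arrays were left out in turn. The background alternative, normexp, also added an offset of 50 units to every spot. Those with miR-451 as a covariate, without replicate 2 of both control and dark-reared groups (both replicates 2), with the block in the slope fit or in the permutation, and with normexp limited to spots without bright background were chosen after seeing the data. No member passed from dark-reared to control under any of them. There miR-144 turned sign with the percentile over all probes (-0.062), quantile normalization (-0.039), no scaling (-0.15) and the miR-451 covariate (-0.13), and miR-451 turned without scaling (-0.067). After monocular deprivation the percentile over all probes gave 1.04, 1.12 and 0.86 for miR-144, miR-451 and miR-486, all called, and -1.11, -1.10 and -0.74 from dark-reared to monocularly deprived, all called. miR-486 was also called after monocular deprivation with quantile normalization (0.77) and the brightest probe (0.49). With normexp the signs of miR-144 (-0.24) and miR-486 (-0.51) turned there, and against dark rearing (0.25 and 0.51). With bright spots left out of normexp they did not turn (0.31 and 0.22, and -0.15 and -0.03 against dark rearing). With the miR-451 covariate miR-144 had -0.27 after monocular deprivation and 0.14 between the deprived groups. The call of the miR-144 slope was lost with quantile normalization (1.25), normexp (0.079, and 0.13 with bright spots left out), slide 1 alone (1.30), both replicates 2 left out (0.81) and the replicate block (1.36). The slope of miR-486, near 0, took the other sign with the percentile over all probes (0.23), quantile normalization (0.0022), no scaling (0.48, called, as were 278 of all 317), mean log2 over probes (0.0037), outlier spots kept (0.016), both replicates 2 left out (0.70) and the replicate block (0.072). The replicate block changed no call of a member in the group comparisons and gave 1 call in place of 2 from dark-reared to control. The correlation of miR-144 with miR-451 was -0.11 with normexp and 0.838 without the 2 farthest arrays, and that of deviations, 0.973, did not pass with the replicate block in the permutation (adjusted p = 0.0833). That of miR-486 with miR-451 was -0.0013 on deviations, 0.79 with the percentile over all probes, 0.944 without scaling and -0.43 with normexp. That of miR-144 with miR-486 was -0.061 on slide 1, -0.12 on deviations, -0.52 without the 2 farthest arrays, 0.68 with the percentile over all probes, 0.947 without scaling and 0.937 with normexp.

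Calls over all miRNAs from dark-reared to control were 1 with the percentile over all probes, quantile normalization, mean log2, total gene signal, outlier spots kept and both blocked fits, 4 with detection on all 9 arrays, and 0 without scaling, with normexp, with the covariate and without both replicates 2. After monocular deprivation they were 105 (50 higher, 55 lower), 222 with the percentile over all probes (189 and 33), 36 without scaling (0 and 36), 2 with normexp (0 and 2), 6 with bright spots left out and 37 with the covariate; quantile normalization had 84 higher and 36 lower. Between the deprived groups they were 91, against 238, 37, 1, 3 and 50 in the same order, with 60 higher and 31 lower, 35 and 203, and 37 and 0 in the first 3, and 36 and 90 with quantile normalization, and 46 without both replicates 2. In the slope fit they were 278 without scaling, 96 with normexp without bright spots, 2 with mean log2 or outlier spots kept, and 0 under quantile normalization, normexp, slide 1 alone, the block and both replicates 2 left out.

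Leaving out single arrays gave, from dark-reared to control, -0.25 to 0.46 for miR-144, -0.086 to 0.42 for miR-451, 0.17 to 0.40 for miR-486 and 0 to 3 calls. After monocular deprivation it gave 0.20 to 0.77, 0.36 to 0.84, 0.25 to 0.48 and 66 to 104 calls, and between the deprived groups -0.65 to -0.07, -0.62 to -0.18, -0.18 to 0.0066 and 49 to 91 calls. The slope was 1.22 to 1.48 for miR-144 and -0.33 to 0.32 for miR-486, with 0 to 3 calls. The causes of these changes were not tested. The signal of miR-486, little above background, limits what can be said of it.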
